A study of Homo sapiens with 6 samples.

Results

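The DNA replication machinery was followed through 45 genes, fixed by name: those for origin licensing, the replicative helicase, the polymerases, the sliding clamp with its loader, single-strand binding, strand joining and nucleotide supply. All 45 were found in the count table of 56505 gene names, each on 1 row, and all 45 passed the filter on low counts. RNA had been sequenced from MDA-MB-468, an established human cell line from a breast cancer that lacks hormone receptors and HER2, grown in medium with serum. Of 6 libraries, 3 came from cells with a control short hairpin RNA (pLK0-shControl, here shControl) and 3 from cells with a hairpin against cytokeratin 5 (shCK5-22 in the titles, here shCK5). The labels name no other treatment. Only 1 hairpin against KRT5, the gene of cytokeratin 5, was sequenced, and the labels do not say whether the replicates were separate cultures, so p-values here speak only of the spread among the libraries sequenced, which may be technical.

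Replication is prepared when the origin recognition complex (ORC), CDC6 and CDT1 load the ring of MCM2 to MCM7 onto DNA in G1 phase, while geminin holds CDT1 back outside G1. In S phase CDC45 and GINS join the ring to form the active helicase, polymerase alpha with primase starts each strand, and polymerases epsilon and delta extend it on the clamp PCNA, which the RFC complex loads. Many of these genes are textbook targets of E2F transcription factors, which the retinoblastoma protein RB1 restrains, and their transcripts are commonly read as a sign of dividing cells.

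Levels are given as CPM, the count of a gene scaled by the depth of its library with edgeR's TMM factors. The targeted gene KRT5 had 2056, 2060 and 2017 CPM in shControl and 17.2, 15.5 and 16.5 CPM in shCK5, so it was low where the labels say it was knocked down. The depth was 68810882 to 83594772 counts per library, of which the replication genes took 0.42% to 0.43% in shControl and 0.473% to 0.477% in shCK5. The share of mitochondrial counts also differed, 10.3% to 10.7% in shControl and 7.84% to 8.72% in shCK5, and its part in the results was not tested. Among markers of the cell type, the summed level of 6 basal genes was 6075 to 6250 CPM in shControl and 812.9 to 841.2 CPM in shCK5, and that of 8 luminal and simple epithelial genes 4946 to 5039 and 1366 to 1392 CPM. Of 9 fibroblast, 5 leukocyte and 5 endothelial markers, THY1 and CD68 had no count in any library. The summed levels of these lists were 19.2 to 20.2, 11.3 to 12.9 and 4.46 to 6.37 CPM in shControl against 12.3 to 14.4, 1.47 to 2.15 and 5.98 to 6.94 CPM in shCK5. RB1 and SMAD4, which are known to be deleted in MDA-MB-468, had 1.84 to 2.08 and 0.0752 to 0.322 CPM in shControl but 98.9 to 103 and 16.3 to 17.4 CPM in shCK5. The shCK5 libraries therefore went against their labelled line at these genes, and an effect of the knockdown cannot be told apart from a difference between the cells of the groups in any result here.

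The promoters of 6 genes are shown first because they bear on the pattern described next: replication genes with an E2F word before their start moved in opposite directions or hardly at all. These 6 were picked by hand with the values known. Each run gives the 250 bases before the gene's start, 5′ to 3′ on the gene's strand, from RefSeq's table on GRCh38.p14. Only windows with an E2F word are printed, and PCNA has another window without that word. Capitals mark the E2F words TTTCCCGC, TTTCGCGC, TTTGCCGC and TTTGGCGC and the word CCAAT on either strand, so that GCGGGAAA, GCGCGAAA, GCGCCAAA and ATTGG are their reverse forms. CDT1 lies at chr16:88803539-88803788 (plus strand), MCM3 at chr6:52284743-52284992 (minus strand), MCM6 at chr2:135876444-135876693 (minus strand), POLA1 at chrX:24693668-24693917 (plus strand), POLA2 at chr11:65261712-65261961 (plus strand) and PCNA at chr20:5126623-5126872 (minus strand).
CDT1: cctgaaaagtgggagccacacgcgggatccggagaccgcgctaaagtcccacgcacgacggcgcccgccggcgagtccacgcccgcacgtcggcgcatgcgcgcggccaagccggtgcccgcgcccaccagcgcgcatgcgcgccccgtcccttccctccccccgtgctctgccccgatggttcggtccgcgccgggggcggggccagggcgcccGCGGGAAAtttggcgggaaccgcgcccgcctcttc
MCM3: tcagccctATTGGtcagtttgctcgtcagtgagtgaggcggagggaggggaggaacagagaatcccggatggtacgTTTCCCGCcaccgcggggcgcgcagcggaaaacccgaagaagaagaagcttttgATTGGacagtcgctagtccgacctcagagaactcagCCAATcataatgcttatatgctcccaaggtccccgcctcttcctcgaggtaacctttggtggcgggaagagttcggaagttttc
MCM6: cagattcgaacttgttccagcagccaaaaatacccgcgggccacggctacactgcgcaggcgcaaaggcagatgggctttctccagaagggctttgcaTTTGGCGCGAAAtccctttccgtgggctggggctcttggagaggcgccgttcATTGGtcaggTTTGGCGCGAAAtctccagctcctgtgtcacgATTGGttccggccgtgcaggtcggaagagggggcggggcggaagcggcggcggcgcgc
POLA1: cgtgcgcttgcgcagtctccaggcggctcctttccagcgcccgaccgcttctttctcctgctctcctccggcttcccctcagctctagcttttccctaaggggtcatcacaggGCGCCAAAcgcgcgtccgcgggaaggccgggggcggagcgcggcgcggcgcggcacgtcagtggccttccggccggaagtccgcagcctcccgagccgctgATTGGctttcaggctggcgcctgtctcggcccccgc
POLA2: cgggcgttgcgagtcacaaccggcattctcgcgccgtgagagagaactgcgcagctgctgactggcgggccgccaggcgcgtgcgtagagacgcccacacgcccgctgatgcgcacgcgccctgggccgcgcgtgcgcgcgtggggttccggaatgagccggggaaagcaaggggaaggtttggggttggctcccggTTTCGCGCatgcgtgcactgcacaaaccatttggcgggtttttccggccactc
PCNA: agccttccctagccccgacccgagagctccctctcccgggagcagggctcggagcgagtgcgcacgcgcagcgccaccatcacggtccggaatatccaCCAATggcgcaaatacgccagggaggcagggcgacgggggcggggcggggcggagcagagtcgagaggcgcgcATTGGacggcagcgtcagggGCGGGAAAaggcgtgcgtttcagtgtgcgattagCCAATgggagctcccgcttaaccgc

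An E2F word was present in the window of 19 of the 39 replication genes that matched the table, counted from 250 bases before to 50 after the start, or in 19 of their 50 windows (38%). Over all 35116 windows of the table the share was 3.31%. MCM6 had 4 matches in 2 stretches, where a TTTGGCGC word overlaps a GCGCGAAA word. MCM2 had 2 overlapping matches just after its start (2 to 9 and 6 to 13). MCM3 and MCM7 each had a second word, which crosses the start in MCM3 (-4 to 3) and ends just before it in MCM7 (-9 to -2). MCM7 also has windows without an E2F word. The genes with the word were called in both directions: 9 of the 19 were higher in shCK5 and 10 lower, whereas of the other 20 matched genes 12 were higher, 3 lower and 5 not called. Over all genes tested, 40.9% were higher and 41.7% lower, so calls in both directions were common in the whole table. The median log2 fold change was -0.08 with the word and 0.34 without it. Only the E2F words listed above were searched, so a gene without a match may hold another form of the site. CCAAT stood in 58% of the replication windows against 34.6% of all, the GC box GGGCGG in 72% against 45%, and TTTGAA or TTCGAA, words of the late cell cycle element CHR, in 4% against 16.4%. Both strands were searched, and a match describes letters, not a bound site.

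Across the 45 genes, 26 were higher in shCK5 and 14 lower at a Benjamini-Hochberg adjusted p of 0.05 in the quasi-likelihood test of edgeR, and 5 did not pass. In bulk RNA, a different number of cells in S phase and a different amount of RNA per cell cannot be told apart. Most genes of the table passed this test, 40.9% of 19567 as higher and 41.7% as lower, against 57.8% and 31.1% of the replication genes. Their median log2 fold change was 0.23 beside -0.02 over all genes, and their middle range (25th to 75th percentile) was -0.15 to 0.55 beside -0.98 to 0.77. For 41 of the 45 the ranges of the groups were separate (27 higher, 14 lower), beside 84.2% of all genes (41.6% higher, 42.6% lower). Past 2-fold and called were 5 higher genes (MCM3, MCM10, POLA1, POLE2 and RRM1) and 2 lower ones (POLA2 and TYMS), beside 19.6% and 24.4% of all genes. A second test asked for a change beyond 1.5-fold. It called 15 of the 45 (33.3%), 10 higher and 5 lower, beside 53.2% of all genes (25.4% higher, 27.9% lower). With libraries scaled by size alone, 23 replication genes were higher and 18 lower, beside 7167 and 9118 of the 19567 genes tested. The median of the 45 genes went from 0.23 to 0.0939 while that of all genes went from -0.02 to -0.16.

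The 10 genes higher beyond 1.5-fold were CDC6, MCM3, MCM7, MCM10, POLA1, POLE2, RFC2, RFC4, RPA3 and RRM1, and the 5 lower ones were ORC3, GINS3, POLA2, LIG1 and TYMS. Their folds lay between 1.59 (RPA3) and 2.8 (POLA1). The summed level of the 45 genes was 4016, 4069 and 4033 CPM in shControl and 4981, 5008 and 4959 CPM in shCK5, a ratio of 1.23 between the group means. The sum was higher in all 3 shCK5 libraries, and most of the gap came from the MCM proteins, whose sum went from 1074 to 1098 CPM up to 1714 to 1722 CPM. Replicates lay close together: apart from FEN1, the SD within a group was at most 12.2% of the mean, and 1675 to 177152 counts over the 6 libraries stood behind each gene.

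**Figure D1:**
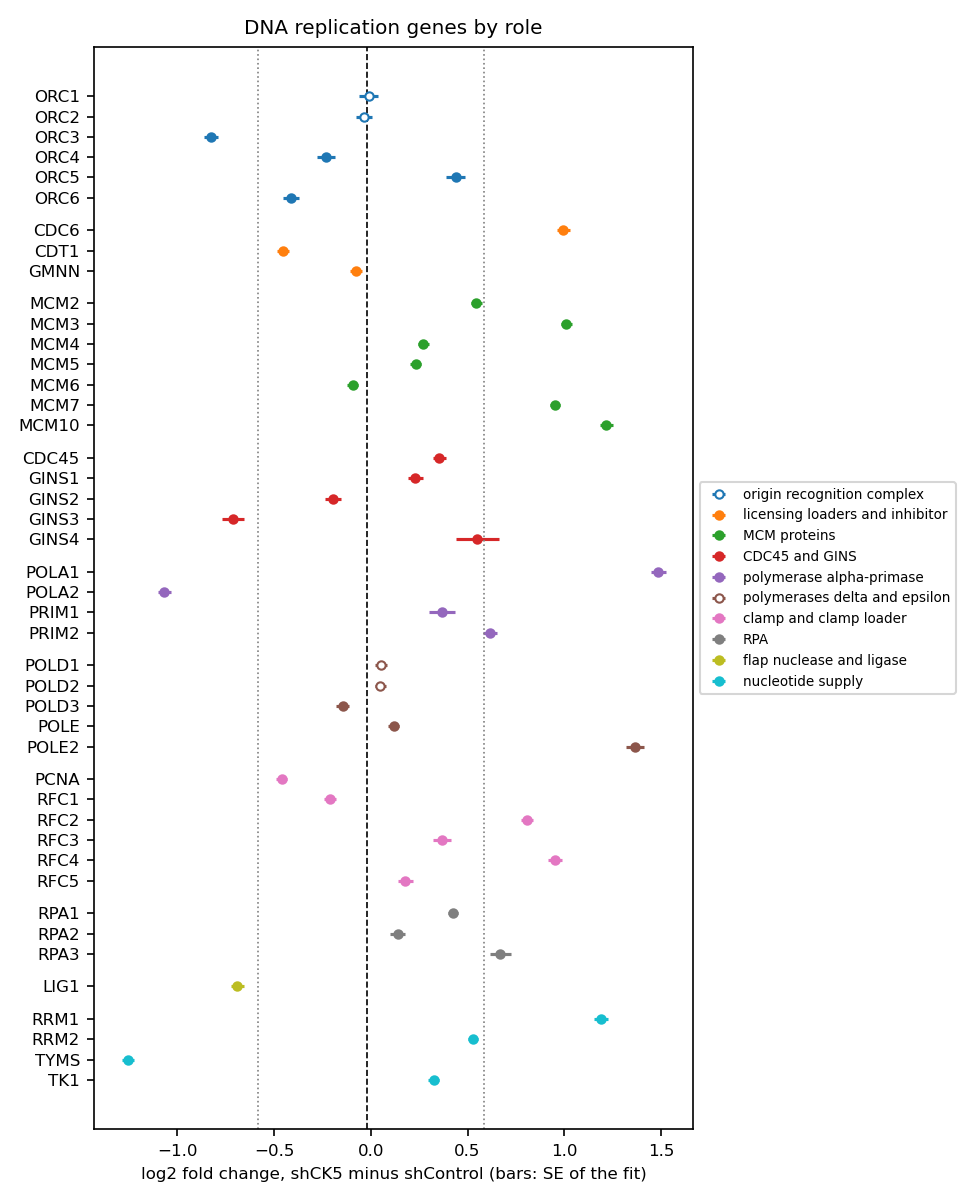
Log2 fold change (shCK5 minus shControl, x axis) of 44 replication genes grouped and coloured by role, with the standard error of the edgeR fit as bars, FEN1 left out. Filled points passed the test at 0.05, open points did not, the dashed line is the median of all genes (-0.02) and the dotted lines mark 1.5-fold; within most complexes points lie on both sides of the dashed line.

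Origin recognition genes did not move together. Of ORC1 to ORC6, ORC5 was higher, ORC3, ORC4 and ORC6 were lower, and ORC1 and ORC2 did not pass. ORC3, a subunit of the ORC core, had 54.0, 56.0 and 55.6 CPM in shControl and 31.1, 30.8 and 31.6 CPM in shCK5. All shCK5 values lay below all shControl values, 1.77-fold apart (log2 fold change -0.83, SE 0.0374, edgeR adjusted p = 1.79e-16). ORC6, which binds the core more loosely, had 50.9, 49.1 and 53.7 CPM against 37.9, 39.6 and 37.9 CPM (log2 fold change -0.41, SE 0.04). ORC5, an ATP-binding subunit, was 1.36-fold higher and ORC4 1.18-fold lower. ORC1, the subunit whose level is known to vary over the cell cycle, had 23.0, 25.1 and 26.1 CPM in shControl and 24.7, 24.4 and 24.5 CPM in shCK5, so its groups overlapped (edgeR adjusted p = 0.845). ORC2 overlapped as well (log2 fold change -0.04, SE 0.042, edgeR adjusted p = 0.421). With libraries scaled by size alone both were called lower, at -0.15 for ORC1 and -0.17 for ORC2 (edgeR adjusted p = 0.0097 and 0.000711), and ORC2 also when only genes with a mean of at least 1 CPM were tested (edgeR adjusted p = 0.0392).

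The loaders of the helicase moved apart. CDC6, the ATPase that joins ORC to load the MCM ring, rose from 68.8, 66.9 and 63.0 CPM to 134, 132 and 130 CPM. The groups were far apart (log2 fold change 0.99, SE 0.0328, edgeR adjusted p = 2.16e-19). CDT1, its partner in loading, fell from 125, 129 and 126 CPM to 94.6, 94.6 and 88.0 CPM (log2 fold change -0.45, SE 0.032, edgeR adjusted p = 1.7e-12), a 1.37-fold change that did not pass the 1.5-fold test. GMNN, which encodes the CDT1 inhibitor geminin, had 85.8, 89.6 and 88.5 CPM against 84.8, 82.5 and 82.7 CPM. It was lower by only 1.06-fold (edgeR adjusted p = 0.0223), a call that was lost when any of 4 libraries was left out, namely shControl replicate 2 or 3 or shCK5 replicate 2 or 3 (edgeR adjusted p of 0.0692 to 0.139). The call was also lost when every gene with a count was tested (edgeR adjusted p = 0.0968) and with DESeq2 (adjusted p = 0.0515). Per kb of exon, the log2 ratio of CDT1 to GMNN was 0.11, 0.1 and 0.08 in shControl and -0.27, -0.23 and -0.34 in shCK5. The log2 ratio of CDC6 to ORC1 per kb rose from 0.77, 0.6 and 0.46 to 1.62, 1.62 and 1.59. Neither ratio overlapped between the groups. The ratio of ORC1 to ORC2 did overlap, with 0.23, 0.36 and 0.5 against 0.36, 0.42 and 0.38. That of PCNA to RFC1 was separate, with 3.86, 3.92 and 3.91 against 3.68, 3.62 and 3.65. Groups were separate for 84.2% of single genes, and no such share was computed for ratios of other gene pairs.

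The helicase ring genes rose unevenly. Of MCM2 to MCM7, which form 1 hexamer with a single copy of each, 5 were higher and 1 was lower. MCM3 rose from 216, 216 and 206 CPM to 431, 420 and 432 CPM (log2 fold change 1.01, SE 0.0273, edgeR adjusted p = 3.37e-21). MCM7 rose from 267, 268 and 262 CPM to 504, 523 and 514 CPM (log2 fold change 0.95, SE 0.0257, edgeR adjusted p = 3.39e-21). Both were about as far apart between groups, and the other ring genes changed less: MCM2 was 1.46-fold higher, MCM4 1.21-fold and MCM5 1.17-fold. MCM6 had 114, 117 and 113 CPM in shControl and 106, 107 and 108 CPM in shCK5. It was called lower (log2 fold change -0.09, SE 0.0288, edgeR adjusted p = 0.00451). The values of MCM6 did not overlap, yet the difference was 1.07-fold. Per kb of exon the ring genes spanned a range of 3.1-fold in shControl, from MCM5 at 19.5 to MCM7 at 60.6 CPM per kb, and of 5.11-fold in shCK5, from MCM5 at 22.9 to MCM3 at 117 CPM per kb. Exon lengths are the union of all annotated exons of a gene, which understates genes with long rare exons. MCM7 shares 8.9% of its exon bases with AP4M1 on the other strand, which was at 12.6 and 15.6 CPM, so AP4M1 reads can be only a small part of its level. MCM2 shares 23.6% of its exon bases with other annotated genes.

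**Figure D2:**
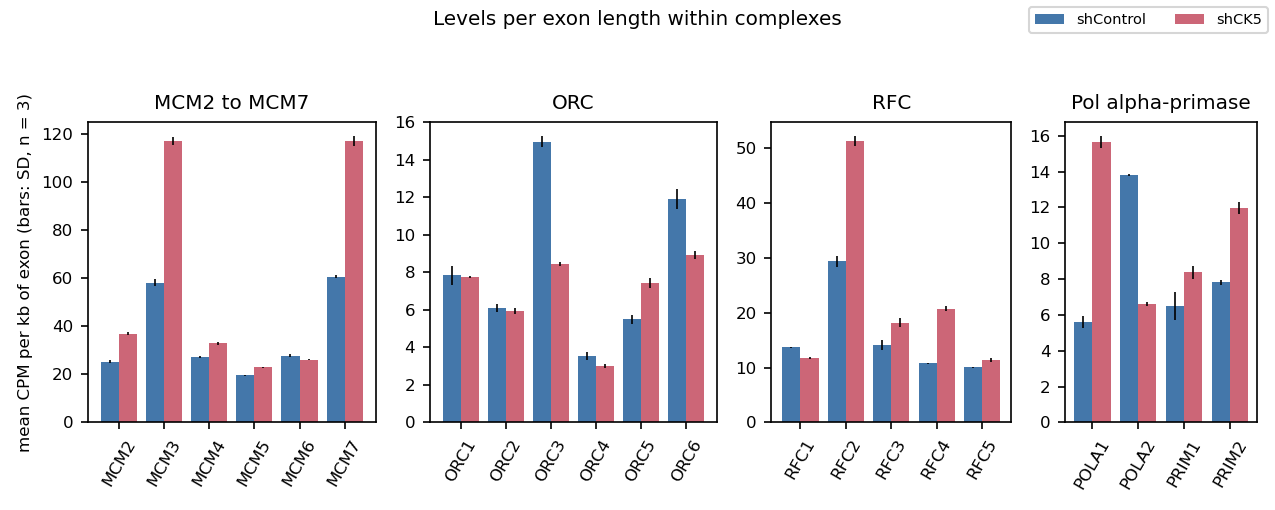
Mean CPM per kb of exon (y axis, bars from 0, error bars SD of 3 libraries) for the subunits of 4 complexes in shControl (blue) and shCK5 (red); scales differ between panels. MCM3 and MCM7 stand out in shCK5, ORC3 falls from the top of its complex, and POLA1 and POLA2 exchange places.

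MCM10, which helps to start the helicase at origins, rose from 38.95, 38.06 and 39.02 CPM to 91.0, 89.6 and 89.0 CPM (log2 fold change 1.22, SE 0.0331, edgeR adjusted p = 3.74e-21). This was the largest change among the MCM-named genes listed. The partners that join the ring changed less and in both directions. CDC45 rose from 51.4, 50.5 and 51.7 CPM to 64.7, 66.4 and 65.0 CPM, which is 1.28-fold. Of the 4 GINS subunits, which act as 1 complex, GINS1 and GINS4 were higher (1.17-fold and 1.46-fold) and GINS2 and GINS3 lower (1.14-fold and 1.64-fold). GINS3 fell from 22.6, 20.1 and 21.4 CPM to 13.2, 13.2 and 12.6 CPM (log2 fold change -0.71, SE 0.0577, edgeR adjusted p = 2.75e-11). GINS4 was the least counted of these genes after FEN1, with 2.77 to 3.32 CPM in shControl and 4.35 to 4.43 CPM in shCK5, and its standard error of 0.111 was the largest of the 44 genes other than FEN1.

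Polymerase alpha-primase, the enzyme that lays down the RNA-DNA primer, held the widest split inside a complex. POLA1, the catalytic subunit, rose from 35.4, 33.4 and 37.6 CPM to 98.4, 102 and 97.4 CPM. Its log2 fold change, 1.49 (SE 0.0387, edgeR adjusted p = 1.52e-21), was the highest of the 45 genes. POLA2, its regulatory subunit, fell from 78.6, 79.2 and 79.3 CPM to 37.0, 38.4 and 37.8 CPM (log2 fold change -1.07, SE 0.0339, edgeR adjusted p = 9.83e-20). Per kb, POLA2 was the highest of the 4 subunits in shControl (13.8 CPM per kb) with POLA1 the lowest (5.6), and in shCK5 POLA1 was the highest (15.7) with POLA2 the lowest (6.59). The primase subunits PRIM1 and PRIM2 were 1.29-fold and 1.53-fold higher. The log2 ratio of PRIM1, the catalytic primase subunit, to POLA1 per kb fell from 0.03, 0.46 and 0.14 to -0.96, -0.89 and -0.84. POLA2 shares 35.1% of its annotated exon bases with AP000944.2, a gene on the same strand that was not among the genes tested, and PRIM1 shares 21.6% with other genes.

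Polymerases delta and epsilon stayed within a narrow range except at POLE2. POLE2, the second subunit of polymerase epsilon, rose from 13.9, 13.1 and 13.3 CPM to 34.2, 34.9 and 34.5 CPM (log2 fold change 1.36, SE 0.048, edgeR adjusted p = 8.74e-19). POLE, the catalytic subunit of the leading strand polymerase, had 135, 135 and 130 CPM against 145, 148 and 143 CPM. That was 1.09-fold higher under the main scaling (edgeR adjusted p = 0.000568), and it turned to -0.02 on the log2 scale when libraries were scaled by size alone (edgeR adjusted p = 0.58). POLD1 and POLD2, the catalytic and a smaller subunit of polymerase delta, did not pass (log2 fold changes 0.05 and 0.05, edgeR adjusted p = 0.11 and 0.0944). Size scaling alone turned both to -0.08 and -0.09 and called them lower (edgeR adjusted p = 0.0131 and 0.00495). POLD1 was called higher without shCK5 replicate 3 (edgeR adjusted p = 0.0435), and POLD2 without that library or without shControl replicate 1 (edgeR adjusted p = 0.029 and 0.0264). POLD2 was also called higher with DESeq2 size factors, with every gene with a count tested and with DESeq2's own test (adjusted p = 0.0483, 0.0359 and 0.0425). POLD3 was 1.11-fold lower.

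The clamp and its loader went in different directions. PCNA, the ring that holds the polymerases on DNA, had the highest level per kb of the 45 genes in both groups, 204 CPM per kb in shControl and 148 in shCK5. It fell from 294, 301 and 303 CPM to 226, 212 and 214 CPM (log2 fold change -0.46, SE 0.0286, edgeR adjusted p = 1.26e-13). RFC4 rose from 31.6, 32.3 and 32.6 CPM to 62.2, 63.6 and 61.0 CPM (log2 fold change 0.95, SE 0.0367, edgeR adjusted p = 6.02e-18). RFC2, another small subunit of the loader, rose from 66.9, 62.3 and 65.5 CPM to 113, 116 and 112 CPM (log2 fold change 0.81, SE 0.0325, edgeR adjusted p = 1.55e-17). RFC3 and RFC5 were 1.29-fold and 1.13-fold higher, whereas RFC1, the large subunit that meets PCNA, was 1.16-fold lower. RFC5 lost its call with size scaling alone (edgeR adjusted p = 0.338). PCNA, RPA2 and RRM2 each have 3 annotated pseudogenes named after them, TYMS has 2, and RFC3, RFC5, POLD2 and FEN1 have 1 each. How reads that match several copies were handled is unknown.

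All 3 RPA genes, which encode the complex that coats single-stranded DNA, were higher. RPA1, the large subunit, rose from 156, 163 and 158 CPM to 211, 216 and 214 CPM, which is 1.34-fold. RPA3, the smallest subunit, rose from 15.6, 17.1 and 17.4 CPM to 25.2, 26.2 and 28.2 CPM (log2 fold change 0.67, SE 0.0555, edgeR adjusted p = 4.31e-11), just past the 1.5-fold test (adjusted p = 0.0401 by edgeR's glmTreat). RPA2 was 1.1-fold higher and lost its call with size scaling alone (edgeR adjusted p = 0.951).

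LIG1, the ligase that seals Okazaki fragments, fell from 99.9, 94.3 and 96.1 CPM to 60.7, 61.2 and 58.0 CPM. The log2 fold change was -0.69 (SE 0.0335, edgeR adjusted p = 7.83e-16). FEN1, the flap nuclease that acts before it, had 99 counts in all 6 libraries together, or 0.0752 to 0.376 CPM in shControl and 0.0553 to 0.367 CPM in shCK5. Dividing cells need this nuclease, so these counts were not read as its level. FEN1 shares 8.7% of its exon bases with FADS2 and TMEM258. No difference is reported for it (edgeR adjusted p = 0.84).

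Genes of nucleotide supply split between routes. RRM1, the large subunit of ribonucleotide reductase, the enzyme that makes deoxyribonucleotides, rose from 91.4, 106 and 101 CPM to 224, 226 and 230 CPM. Its log2 fold change was 1.19 (SE 0.0371, edgeR adjusted p = 6.67e-20). RRM2, the small subunit that is made in S phase, rose less, from 244, 257 and 258 CPM to 366, 369 and 361 CPM (log2 fold change 0.53, SE 0.0273, edgeR adjusted p = 2.85e-15). The log2 ratio of RRM2 to RRM1 per kb therefore went from 1.07, 0.93 and 1.01 down to 0.36, 0.36 and 0.3. RRM2 shares 20.2% of its exon bases with another gene on its strand. TYMS, which makes thymidylate de novo and is the target of fluorouracil, fell from 153, 147 and 144 CPM to 63.9, 61.1 and 61.1 CPM. This was the lowest log2 fold change of the 45 genes, -1.25 (SE 0.0321, edgeR adjusted p = 1.02e-21). TK1, which salvages thymidine to the same product, rose from 179, 183 and 184 CPM to 224, 236 and 224 CPM, which is 1.25-fold. The TYMS value carries a limit: TYMS shares 46.6% of its exon bases with other genes. Most of that is ENOSF1 on the other strand, which covers 39.1% of all TYMS exon bases. ENOSF1 fell as well, from 101 ± 2.4 to 24.0 ± 0.0936 CPM (SD, n = 3), and without a stated strand setting its reads cannot be told apart from those of TYMS in the shared part.

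**Figure D3:**
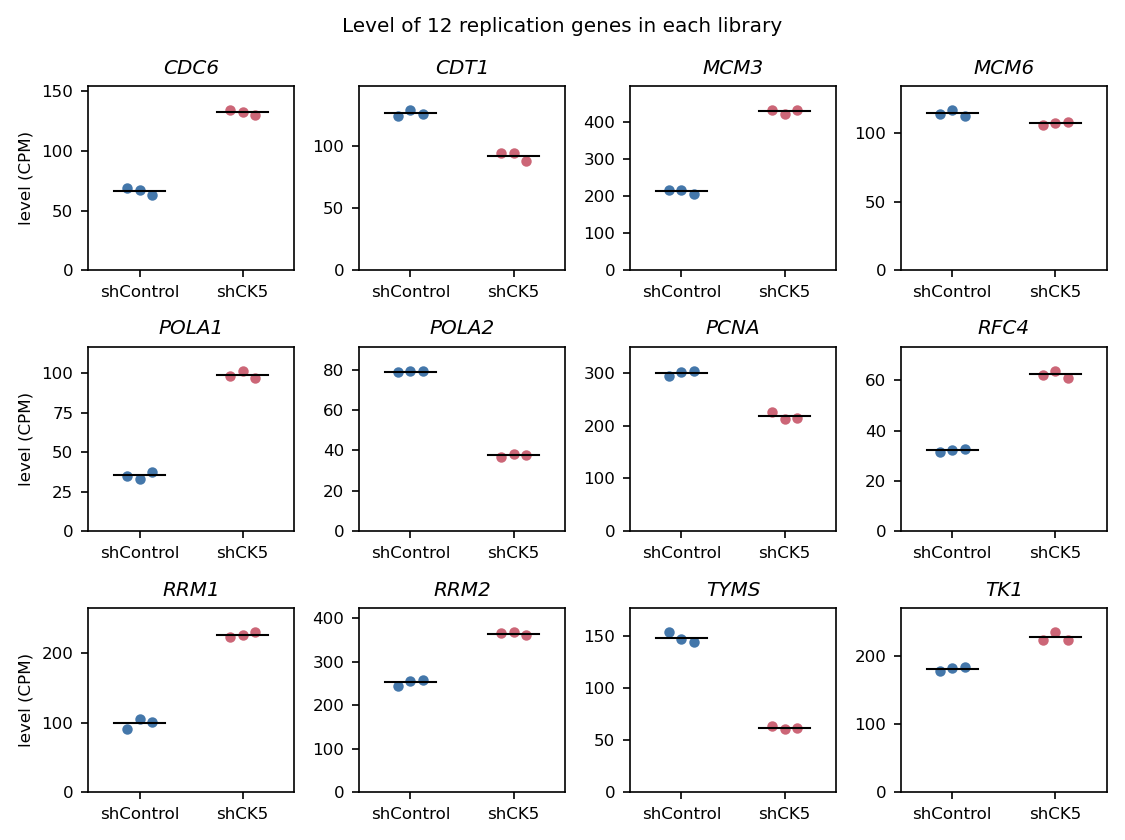
Level in CPM (y axis from 0, scale per panel) of 12 replication genes in each of 3 shControl (blue) and 3 shCK5 (red) libraries, with the mean as a black line. The groups do not overlap in any panel, beside no overlap in 84.2% of all genes tested. ORC1, ORC2, POLD2 and FEN1, whose groups overlapped, are not shown. Partners in the same step go in opposite directions in some cases (CDC6 and CDT1, POLA1 and POLA2), whereas RRM1 and RRM2 both rise. TYMS and TK1, which make the same product by different routes, also go in opposite directions.

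Genes that work beside this machinery were taken from 8 further lists, whose counts stand beside 40.9% higher and 41.7% lower over all genes tested. Of 8 tested replication checkpoint genes, 3 were higher and 3 lower. With libraries scaled by size alone, 2 were higher and 5 lower, beside 7167 and 9118 of 19567 genes tested. Of 25 tested origin firing and fork genes, 18 were higher and 5 lower (median log2 fold change 0.49). WDHD1, which ties polymerase alpha to the helicase, rose from 27.1 ± 0.956 to 74.7 ± 1.76 CPM, and MCM9, a helicase outside the ring, fell from 19.5 ± 0.299 to 9.07 ± 0.393 CPM (SD, n = 3). Of 9 genes of replication-coupled chromatin, 6 were higher and 3 lower: CHAF1A, of the chromatin assembly factor that binds PCNA, rose by 1.44 on the log2 scale, and DNMT1, the maintenance DNA methyltransferase, fell from 1103 ± 20.3 to 642 ± 4.03 CPM. Of 6 genes listed with the alternative clamp loaders, 4 were higher, led by CHTF18 (log2 fold change 1.33, SE 0.0374), and 2 lower. PCLAF, among the lower, had only 108 counts over the 6 libraries, so its call was not read as a change in its level.

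Nucleotide synthesis outside the 45 genes had 16 of 25 tested genes higher and 6 lower (median 0.29). PFAS and IMPDH2, of purine synthesis, rose from 25.8 ± 0.567 to 123 ± 2.0 CPM and from 95.0 ± 2.18 to 255 ± 7.37 CPM. SAMHD1, which breaks down deoxyribonucleotides, rose from 7.51 ± 0.168 to 71.8 ± 2.23 CPM. Of 7 genes of the routes that destroy or spare licensing factors, 4 were higher and 3 lower, with DTL, the receptor that sends CDT1 to the CUL4 ligase on PCNA, rising from 39.1 ± 0.335 to 107 ± 1.03 CPM (log2 fold change 1.45, SE 0.0319). Among 22 tested G1/S regulators, 14 were higher and 6 lower, with the widest spread of any list. RB1 led them (log2 fold change 5.66), followed by CDK6 and E2F7 (3.26 and 2.74). E2F1, chosen after its values were seen, rose from 58.0 ± 2.04 to 200 ± 3.07 CPM. Other E2F genes of the list went both ways. E2F3 and E2F4 were higher (log2 fold changes 0.11 and 1.27), E2F2 and E2F5 lower (-1.065 and -0.80), and E2F6 did not pass. RB1 and the replication genes moved between the same 2 groups, and the part of RB1 in the result was not tested. Of 16 markers of G2 and M phase, 14 were higher and 2 lower, with a median of 0.77 beside 0.23 for the replication genes; MKI67 rose from 622 ± 15.2 to 1462 ± 19.1 CPM. CDK2, E2F8 and CDKN2A had no count in any library, which was not read as lack of expression.

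**Figure D4:**
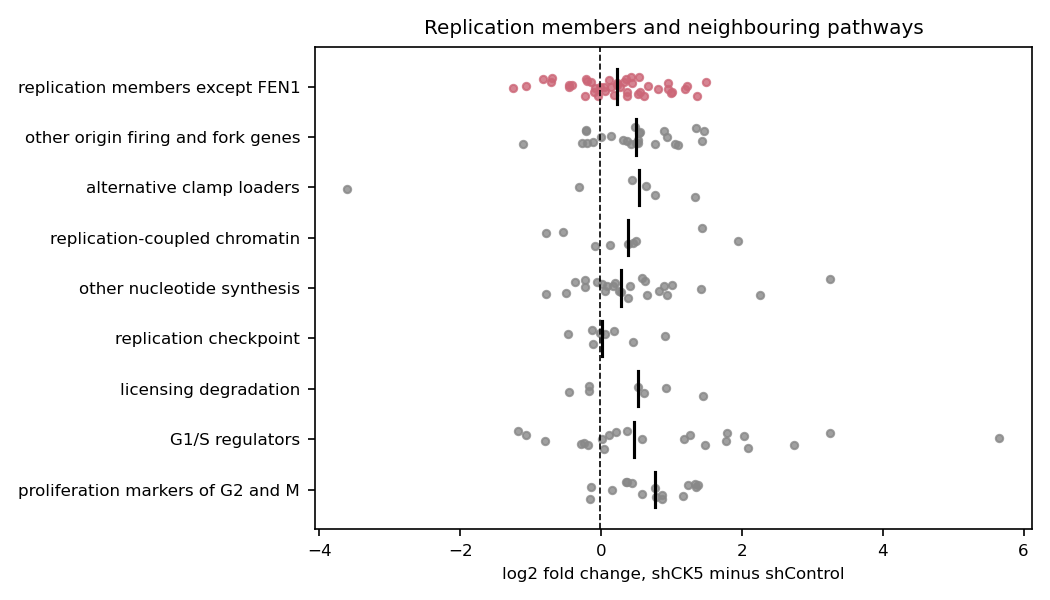
Log2 fold change (x axis, shCK5 minus shControl) of the replication genes (red, FEN1 left out) and of the genes tested in 8 further lists (grey), 1 point per gene, with each list's median as a black bar and the median of all genes as a dashed line. Every list reaches to both sides of the dashed line, and the G2 and M markers have the highest median.

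Replication genes were also set beside their neighbours in the genome, a comparison chosen after the values were seen. For each gene, the other genes with a mean of at least 5 CPM whose midpoint lay within 1 Mb were collected from GENCODE v29 on GRCh38. Over 41 replication genes with at least 5 such neighbours (FEN1 left out), the log2 fold change of the gene and the median of its neighbours had a Pearson's r of 0.64 and a Spearman's rho of 0.67, across genes that share the same 6 libraries and are not independent replicates. Of the 37 called genes among them, 28 (75.7%) had the sign of their neighbours' median. Over 8981 genes of the table with a mean of at least 5 CPM, r was 0.28 and rho 0.4. The sign was shared by 69.5% of called genes, so the sharing of signs was near that of the table. These 8981 genes kept every neighbour. The 41 needed no minimum level, and other replication genes were left out of their neighbours. Neighbours that share exon bases with a gene were kept in both cases.

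Of the replication genes, 4 lie on chromosome 16, and all 4 were lower: ORC6 (46689643 to 46698394), GINS3 (58295080 to 58406144), GINS2 (85676198 to 85690073) and CDT1 (88803213 to 88809258). The median log2 fold changes of their neighbours were -0.66, -0.63, -0.63 and -0.53. Of 216 other genes on this chromosome from the start of ORC6 onward, 135 were lower and 69 higher, with a median of -0.36. TYMS (chromosome 18, 657604 to 673578) had 5 neighbours, all lower, with a median of -1.38. POLA1 (chromosome X, 24693919 to 24996986), MCM10 (chromosome 10, 13161554 to 13211104), RRM1 (chromosome 11, 4094707 to 4138876), MCM3 (chromosome 6, 52264009 to 52284881) and RFC4 (chromosome 3, 186789880 to 186807058) were higher beside neighbours with medians of 0.84, 0.74, 0.77, 0.55 and 0.56. POLA2, LIG1 and PCNA fell beside neighbours with medians of -0.11, 0.11 and 0.24, and MCM7 rose beside a median of -0.03. CDC45 went against its 20 neighbours, of which 15 were lower (median -0.61). GMNN stayed near no change (log2 fold change -0.08) beside 8 neighbours, of which 7 were lower (median -1.65). RPA3 rose beside 6 neighbours with a median of -0.31.

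**Figure D5:**
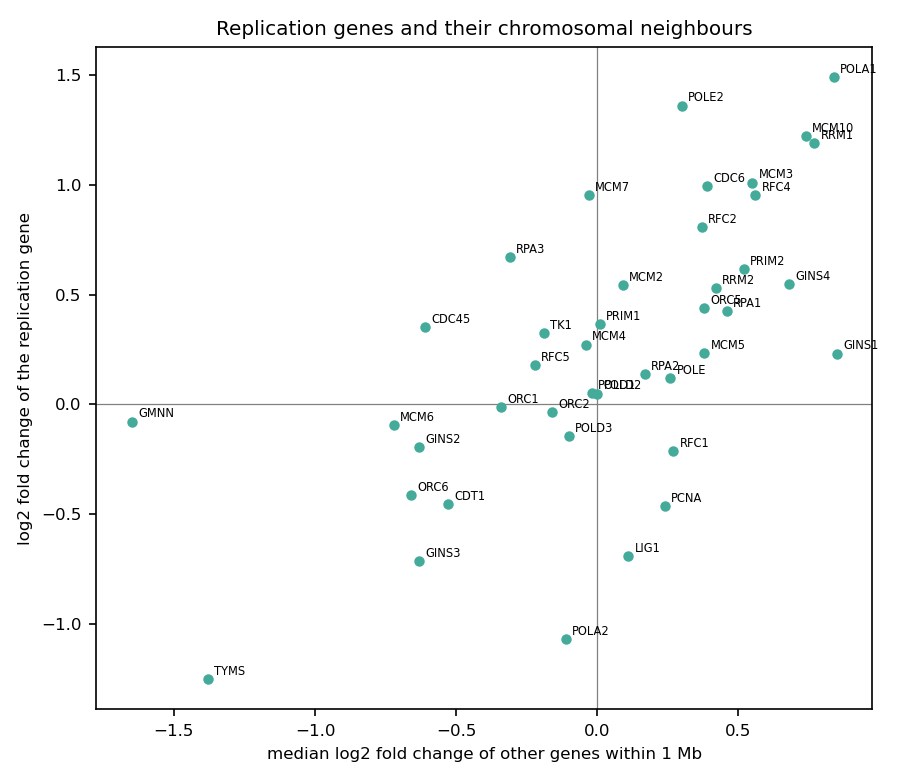
Log2 fold change of 41 replication genes (y axis) against the median log2 fold change of other expressed genes within 1 Mb (x axis), 1 labelled point per gene. Points run from TYMS at the lower left to POLA1 at the upper right (Pearson's r 0.64 across genes). GMNN, at the far left but near no change, POLA2, LIG1, PCNA, CDC45 and RPA3 are among the points away from that line.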

How the data were processed

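RNA sequencing counts of 6 libraries were used. The authors deposited raw whole-number counts per gene name in 1 table, with no normalization. Cutadapt, STAR, SAMtools, Cufflinks and the build GRCh38 are listed, without versions, in the submitters' processing notes. The counting program, strand setting and annotation release were not given in the sources used here. Of the counts above 20, 63.1% to 65% were even numbers, a pattern whose source was not tested.

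Counts were analysed in R 4.3.3 with edgeR 4.0.16: filterByExpr (19567 genes left), TMM scaling, glmQLFit and glmQLFTest with no covariate, and glmTreat for changes beyond 1.5-fold, each with Benjamini-Hochberg adjustment over all genes tested and a threshold of 0.05. The script was tested on simulated data. Alternatives used DESeq2 1.42.0 and limma 3.58.1 (voom), other scalings and filters, a replicate block and leaving out each library. Exon lengths and positions came from GENCODE v29, and promoters from RefSeq (39 of 45 genes matched).

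The 45 genes and all lists were chosen with earlier results of these data known. Text names all 45, KRT5, RB1 and SMAD4, and, of each further list, at most 4 called genes with the largest change and a mean of at least 5 CPM. Outside this rule, E2F1, E2F2, E2F3, E2F4, E2F5, E2F6, PCLAF, genes with no count and genes that overlap a named gene were named after their values were seen. Some marker genes are not reported here.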

Additional observations from a re-analysis of the deposited data

How the results depend on the processing

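Of the 45 replication genes, 23 to 28 were higher and 13 to 18 lower under the 13 alternatives run. Over all genes tested, 44% of the called genes were higher with library size alone. Under the other alternatives this share was 49.5% to 50.3%, beside 49.5% under the main setting. The 1.5-fold test called 13 to 16 of the 45 under 12 alternatives, DESeq2 not being run for that test. Of all genes, 53.2% passed it under the main setting, and their share under the alternatives was not counted. With the replicate block, 26 were higher and 14 lower and every one of the 45 kept its call; over all genes the block gave 15926 calls against 16177. Same-numbered libraries did not deviate together (r of -0.00605 to 0.0112 across genes), and not every library correlated best with its own number. The median log2 fold change over the 45 genes went from 0.23 to 0.0939 with library size alone, 0.245 with every counted gene tested and 0.174 with a mean CPM of at least 1, a filter that left out FEN1; leaving out 1 library gave 0.202 to 0.251. The ratio of summed levels went from 1.23 to 1.24 with DESeq2 size factors and 1.12 with library size alone, and leaving out 1 library gave 1.23 to 1.25. Under the filter at a mean of 1 CPM, 1 gene of the alternative clamp loader list was lower in place of 2, as fewer genes were tested. Under library size alone, 5 checkpoint genes were lower in place of 3, while 9118 genes of the table were lower in place of 8165. Genes close to no change turned sign. POLD1 went to -0.0839 with library size alone and -0.00418 with the filter at 1 CPM, POLD2 to -0.0872 and -0.0074, POLE to -0.0178 with library size alone and ORC1 to 0.00379 with every counted gene tested; leaving out 1 library gave -0.0579 to 0.0288 for ORC1 and -0.792 to 0.411 for FEN1. For these the cause was not tested beyond the setting named. With windows of 0.5 and 2 Mb, chosen after seeing the data, the correlation with neighbours was 0.55 and 0.73. GINS4, with 1675 counts, had the widest error of the genes other than FEN1.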
